A study of Mus musculus with 2 samples.

Results

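The 40 genes described here encode the core of the DNA replication machinery and its S-phase partners: origin licensing factors, replicative polymerases and primase, the sliding clamp and its loader, single-strand binding protein, lagging-strand enzymes, nucleotide supply, chromatin assembly and the E-type cyclins. They were taken by gene symbol, and all 40 were found among the 35129 symbols of the deposited tables. Total RNA was sequenced from primary hepatocytes of C57BL/6 mice, which are liver cells taken from the animal and held in culture. One culture condition was infection with an adenovirus that expresses KLF14, a transcription factor of the Krüppel-like zinc finger family (Ad-KLF14), and the other was infection with the control virus, which the labels name Ad-GFP and the series' design text calls an empty vector. Both cultures were therefore exposed to an adenovirus. The labels do not give the age of the mice, the viral dose or the time after infection. The design text also speaks of retinal profiles and of triplicates, which goes against the labelled hepatocytes, and whether a table combines several cultures is not stated. Each condition holds 1 table, treated as 1 library, so there are no replicates, the conditions could not be tested against each other, and what follows is a description of these 2 libraries.

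In G1, the origin recognition complex, Cdc6 and Cdt1 load the ring-shaped MCM helicase onto DNA, a step called licensing. Cyclin E and its kinase then help to fire origins, and Cdc45 and GINS turn the MCM ring into the active helicase. Polymerase alpha with primase lays down primers, and polymerases delta and epsilon copy the strands on the PCNA clamp. Adult hepatocytes are mostly quiescent and re-enter the cycle after loss of liver tissue. Many of these genes are textbook targets of E2F transcription factors, which activate them as cells approach S phase.

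Promoters are shown first, because the E2F site is the sequence feature by which this gene group is best known. RefSeq promoter windows of GRCm38.p6 (250 bases before to 50 after a gene's start) were held for 33 of the 40 genes. The windows were searched on both strands for TTTCCCGC, TTTCGCGC, TTTGCCGC and TTTGGCGC, which can overlap each other. Below are stretches that end at the base before the annotated start, 5′ to 3′ on the gene's strand, with matches in capitals. Mcm6 (chr1:128359706-128359825, minus strand) and Rfc3 (chr5:151651209-151651328, minus strand) were chosen as genes with matches close to the start, and Cdc6 (chr11:98907901-98908150, plus strand) as the gene with the largest positive log2 ratio. Rrm2 (chr12:24708134-24708253, plus strand) and Tk1 (chr11:117826015-117826134, minus strand) are shown as nucleotide supply genes that differed in opposite directions.
Mcm6: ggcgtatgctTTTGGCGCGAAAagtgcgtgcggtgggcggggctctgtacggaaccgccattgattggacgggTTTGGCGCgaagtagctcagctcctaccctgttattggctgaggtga
Rfc3: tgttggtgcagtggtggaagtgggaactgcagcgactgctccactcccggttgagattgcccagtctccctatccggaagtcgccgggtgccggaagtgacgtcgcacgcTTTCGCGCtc
Cdc6: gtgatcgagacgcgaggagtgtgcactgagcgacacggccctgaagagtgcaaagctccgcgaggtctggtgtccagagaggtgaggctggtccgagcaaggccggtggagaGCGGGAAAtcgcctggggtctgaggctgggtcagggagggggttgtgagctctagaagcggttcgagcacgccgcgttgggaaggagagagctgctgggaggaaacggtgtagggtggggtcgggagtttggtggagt
Rrm2: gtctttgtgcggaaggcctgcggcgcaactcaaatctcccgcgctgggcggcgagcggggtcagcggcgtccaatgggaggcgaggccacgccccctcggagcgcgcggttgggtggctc
Tk1: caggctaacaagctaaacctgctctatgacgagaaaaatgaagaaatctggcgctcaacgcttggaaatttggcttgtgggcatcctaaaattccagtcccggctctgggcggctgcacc
Mcm6 holds 3 matches, of which a pair overlap in the longer capital run, and Cdc6 holds its match on the opposite strand. Rrm2 and Tk1 hold none of these letters in the window.

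Most of the replication genes were higher in the Ad-KLF14 library, and a few stood well below. On log2(FPKM + 1), where FPKM counts fragments scaled to gene length and library size, 31 of 40 genes had a ratio above 0, against 48.3% of the 12419 genes whose mean reached 1 FPKM. The median log2 ratio was 0.37, beside −0.03 over all those genes, and the middle of the group ran from 0.04 to 0.81 between its quartiles. The 40 genes all passed the level filter. They were chosen with earlier results of these data known, so their shares beside all genes are a description only. At least 2-fold higher were 5 genes, Cdc6, Rrm2, Mcm10, Pole and Fen1, which is 12.5% against 6.37% of all genes. At least 2-fold lower were Tk1 and Pold1, which is 5% against 8.99% of all genes. The calls depend on the pseudocount: with 5 FPKM in place of 1, only Rrm2 was at least 2-fold higher, which is 2.5% against 2.38% of all genes, and only Tk1 at least 2-fold lower, which is 2.5% against 3.76%. With 1 FPKM the other 33 genes lay under 2-fold, as did 10511 of the 12419 genes. Within 1.5-fold on that scale lay 18 of the 40 genes (45%, against 62.3% of all genes).

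**Figure D1:**
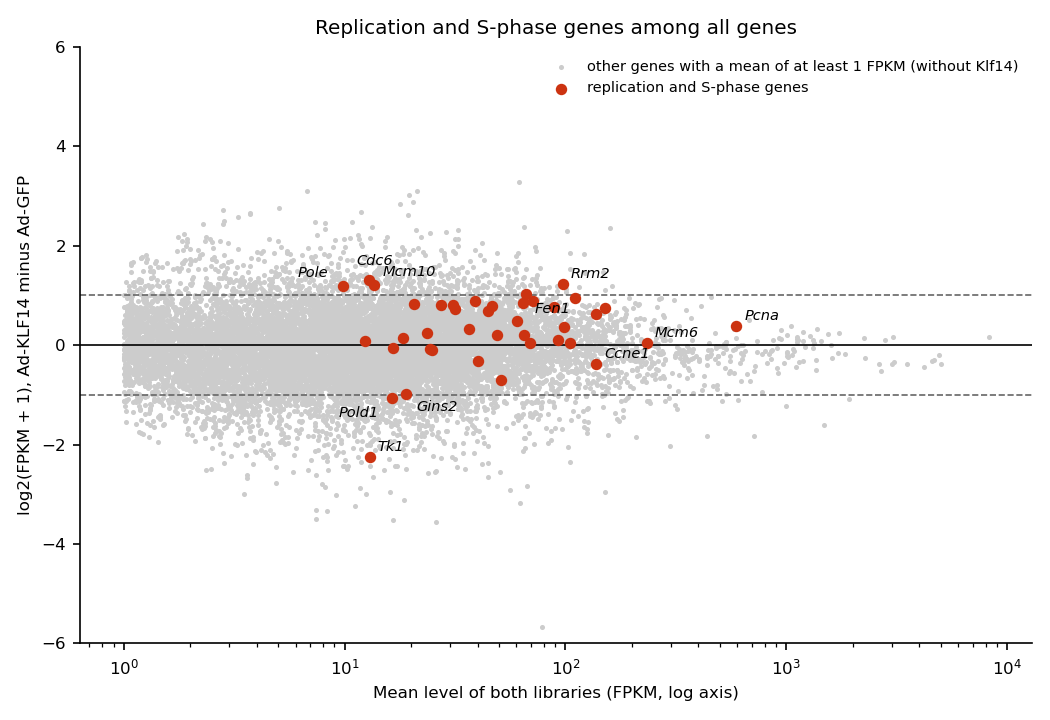
Each grey point is a gene whose mean reached 1 FPKM, without Klf14, and red points are the 40 replication and S-phase genes; the x axis is the mean level of both libraries in FPKM (log axis) and the y axis the difference of log2(FPKM + 1), Ad-KLF14 minus Ad-GFP, with dashed lines at 2-fold. Of the red points 31 lie above 0, 5 above the upper line and 2 below the lower line.

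A counting interval (exact 95% Clopper-Pearson interval of the reads in both libraries) is given with each ratio, and it covers counting error only, since cultures were not replicated. By that interval 25 of the 40 genes lay above a ratio of 1, against 33.2% of 12402 genes with an interval. The shares over all genes are not like for like, because intervals narrow with reads and the 40 genes had a higher median level. Another 6 lay below 1, against 37.1%, and the intervals of 9 held 1, against 29.7%. The reads were recovered from FPKM as lower limits, so an interval can be too wide, also among those 9. Reads behind a value numbered at least 59 in every member and library.

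Recovered read totals were 11151711 for Ad-KLF14 and 11311344 for Ad-GFP. Klf14 itself, at 13164 FPKM with Ad-KLF14 against 0.298 FPKM with Ad-GFP (values of pairs are given in this order throughout), took 1.95% of the reads of the Ad-KLF14 library, and viral and endogenous transcripts were not told apart. All 8 hepatocyte markers examined were measured in both libraries, and their ratios went in both directions. Albumin, Alb, was at 4172 against 5115 FPKM, and Apoa1, Serpina1a, Cps1 and Cyp2e1 also had counting intervals below 1. Hnf4a, at 34.1 against 26.2 FPKM, and Tat, with a ratio of 1.68, had intervals above 1, and the interval of Ttr held 1. Cps1 was low in both libraries, at 2.8 against 4.91 FPKM. Of other liver cells, 6 endothelial markers summed to 6.09 against 4.67 FPKM, 8 stellate cell and fibroblast markers to 3.41 against 3.51 FPKM, and 6 lymphocyte and neutrophil markers to 2.28 against 2.29 FPKM. The 7 macrophage markers summed to 204 against 135 FPKM, mostly Cd68 at 160 against 71.1 FPKM. They did not go together, since Mpeg1 was at 17.1 against 40.1 FPKM, and the Kupffer cell marker Clec4f was at 0.411 against 0.332 FPKM. The 5 cholangiocyte markers summed to 194 against 688 FPKM, nearly all of it Spp1, and the duct keratin Krt7 was listed at 0 in both libraries. The part of the macrophage and cholangiocyte signals in the results was not tested. In such bulk RNA, more cells in S phase and more transcript per cell cannot be told apart.

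By their median, the genes were well expressed in both conditions. Their median level was 51.6 against 38.6 FPKM, beside 11.9 against 12.5 FPKM over all genes kept. Most genes called 2-fold apart lay below the all-gene median in a library. With Ad-GFP these were Pole (5.61 FPKM), Cdc6 (6.98 FPKM) and Mcm10 (7.82 FPKM), and with Ad-KLF14 Tk1 (3.86 FPKM) and Pold1 (10.3 FPKM). Rrm2 and Fen1 lay above it in both. On this scale, which is per length of gene model, the highest was Pcna and the lowest were Tk1 in the Ad-KLF14 library and Pole in the Ad-GFP library. The order of levels was similar in both libraries, with a Spearman's rho of 0.89 over the 40 genes, given as a description because both series share the same gene models.

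**Figure D2:**
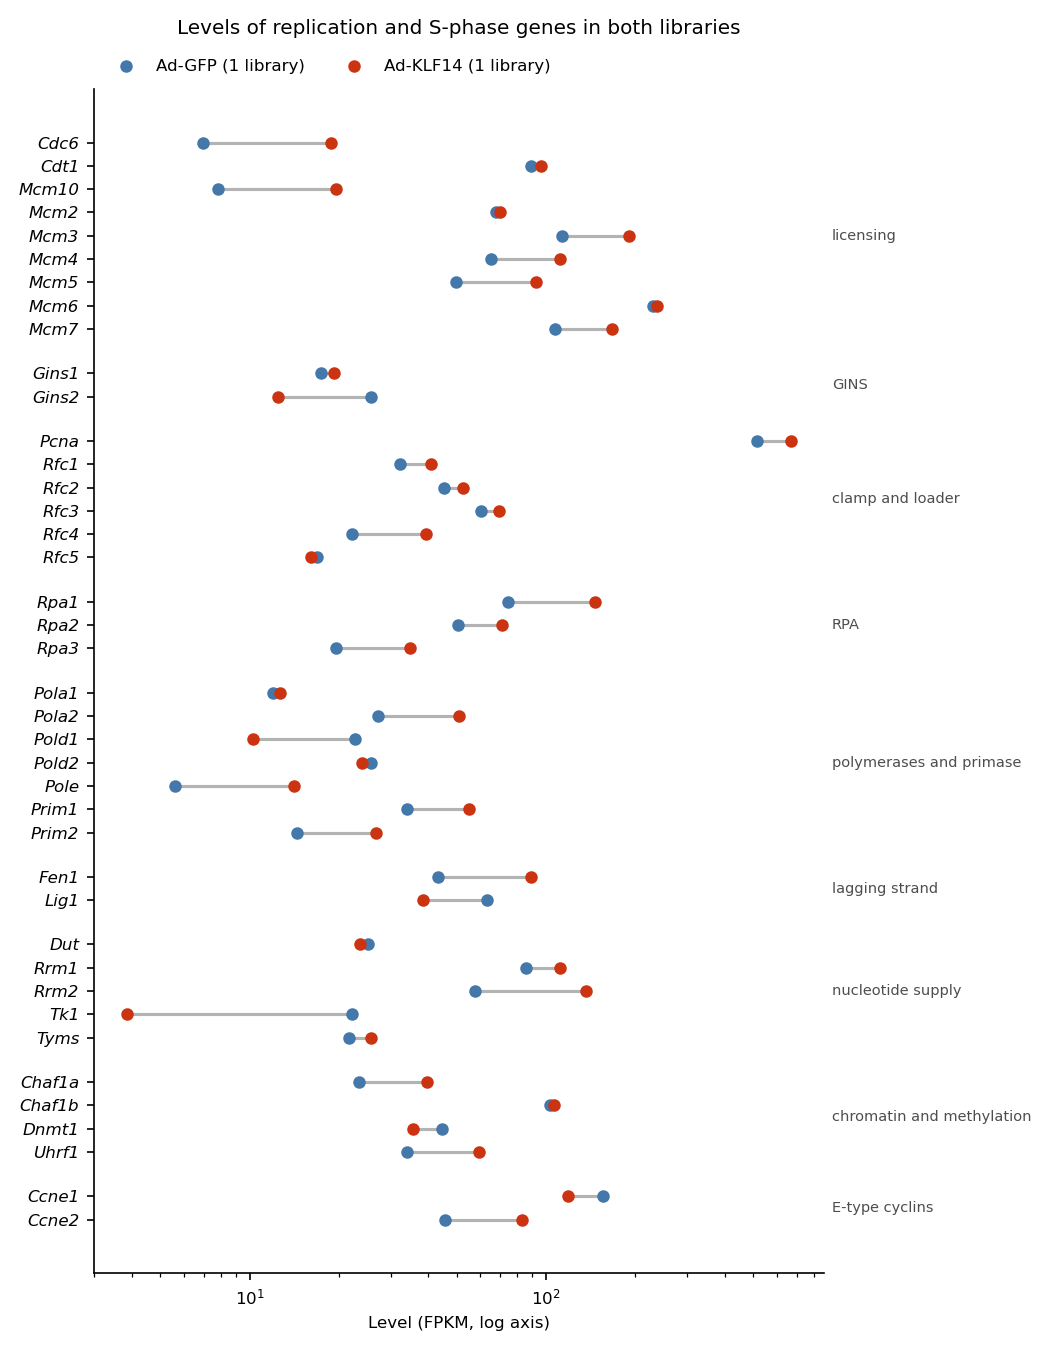
Levels in FPKM (log axis) of the 40 genes, 1 row per gene and grouped by role, with a blue point for the Ad-GFP library, a red point for the Ad-KLF14 library and a grey line joining them. Red lies to the right in 31 rows; the widest gap is that of Tk1, where red lies to the left at 3.86 against 22.1 FPKM.

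All 9 licensing genes had log2 ratios above 0, with a median of 0.74. Cdc6, the ATPase that recruits the helicase with Cdt1, was at 18.9 against 6.98 FPKM, from 971 and 364 reads (2.71-fold higher, counting interval 2.40 to 3.06). Mcm10, which is needed to activate the loaded helicase and is not part of the ring, was at 19.5 against 7.82 FPKM, from 760 and 309 reads (2.49-fold, 2.18 to 2.86). Cdt1, the partner of Cdc6 in loading, was at 96.5 against 89.3 FPKM, a ratio of 1.08 (1.02 to 1.15). Thus the 2 loading factors differed in their ratios by more than counting error, with Cdc6 low in level and apart, and Cdt1 higher in level and close.

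The 6 subunits of the MCM ring, which assemble in equal numbers, did not share a single ratio. Mcm5 was at 92.4 against 49.7 FPKM (1.86-fold higher, 1.76 to 1.97), Mcm4 at 111 against 65.4 FPKM (1.70-fold, 1.62 to 1.79), Mcm3 at 190 against 113 FPKM (1.68-fold, 1.59 to 1.78) and Mcm7 at 167 against 107 FPKM (1.55-fold, 1.48 to 1.63). Mcm2 was at 69.9 against 67.8 FPKM and Mcm6 at 237 against 230 FPKM, each with a ratio of 1.03. The interval of Mcm2 ran from 0.976 to 1.09 and that of Mcm6 from 0.999 to 1.06, so the depth did not resolve a difference in either. The intervals of Mcm3, Mcm4, Mcm5 and Mcm7 did not overlap with these. Summed over the ring, the level was 868 against 633 FPKM (1.37-fold). Mcm6, the most abundant subunit in both libraries, stood 4.62-fold above the lowest, Mcm5, in the Ad-GFP library. In the Ad-KLF14 library Mcm6 stood 2.56-fold above Mcm5 and 3.39-fold above Mcm2, which was the lowest there.

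GINS is the 4-subunit complex that joins Cdc45 and MCM in the active helicase. Gins1 was at 19.3 against 17.4 FPKM, from 234 and 214 reads, a ratio of 1.11 with an interval of 0.917 to 1.34. Gins2 was at 12.4 against 25.6 FPKM, from 144 and 301 reads (2.06-fold lower, 1.68 to 2.53), which was −0.99 on log2(FPKM + 1) and so just short of 2-fold on that scale. Outside the group of 40, the partner Gins4 was at 45.1 against 26.6 FPKM (1.70-fold higher, 1.42 to 2.03). Gins3, at 5.13 against 5.94 FPKM, rested on at least 23 and 27 reads (ratio 0.864, 0.473 to 1.57). On these reads its interval overlapped with those of Gins1 and Gins4. The reads are lower limits that imply a gene length of 402 bases, where the nearest reference transcript has 654 bases. The interval can therefore be too wide to compare the 4 subunits.

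Pcna, the sliding clamp that holds polymerases on DNA, had the highest level of the 40 genes, at 671 against 515 FPKM, a ratio of 1.30 (1.26 to 1.34). A near-identical pseudogene copy, Pcna-ps2, was listed at 4.42 against 2.18 FPKM, and how reads common to both were assigned is not stated, so the value of Pcna is uncertain. The clamp loader RFC has 5 subunits. Rfc4 was at 39.5 against 22.2 FPKM (1.78-fold higher, 1.45 to 2.18), and the large subunit Rfc1 at 40.8 against 32.2 FPKM, a ratio of 1.27 (1.19 to 1.35). Rfc3 was at 69.7 against 60.4 FPKM (ratio 1.15, 1.05 to 1.27). For Rfc2, at 52.3 against 45.3 FPKM (ratio 1.16, 0.974 to 1.37), and Rfc5, at 16.1 against 16.9 FPKM (ratio 0.956, 0.816 to 1.12), the intervals held 1. The reads of Rfc2 imply a gene length of 506 bases, where the nearest reference transcript has 655 bases. They are lower limits, so its interval can be too wide. None of the 6 clamp and loader genes reached 2-fold, and neither did 10511 of the 12419 genes kept.

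RPA, the heterotrimer that coats single-stranded DNA, was higher in all 3 subunits. Rpa1, the large DNA-binding subunit, was at 146 against 74.6 FPKM (1.95-fold, 1.86 to 2.05), just short of 2-fold. Rpa3 was at 34.9 against 19.5 FPKM (1.78-fold, 1.45 to 2.21), and Rpa2, which is phosphorylated in the response to DNA damage, at 71.0 against 50.4 FPKM (1.41-fold, 1.25 to 1.58). With a sum of 252 against 145 FPKM (1.74-fold), RPA differed more in its sum than the MCM ring.

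**Figure D3:**
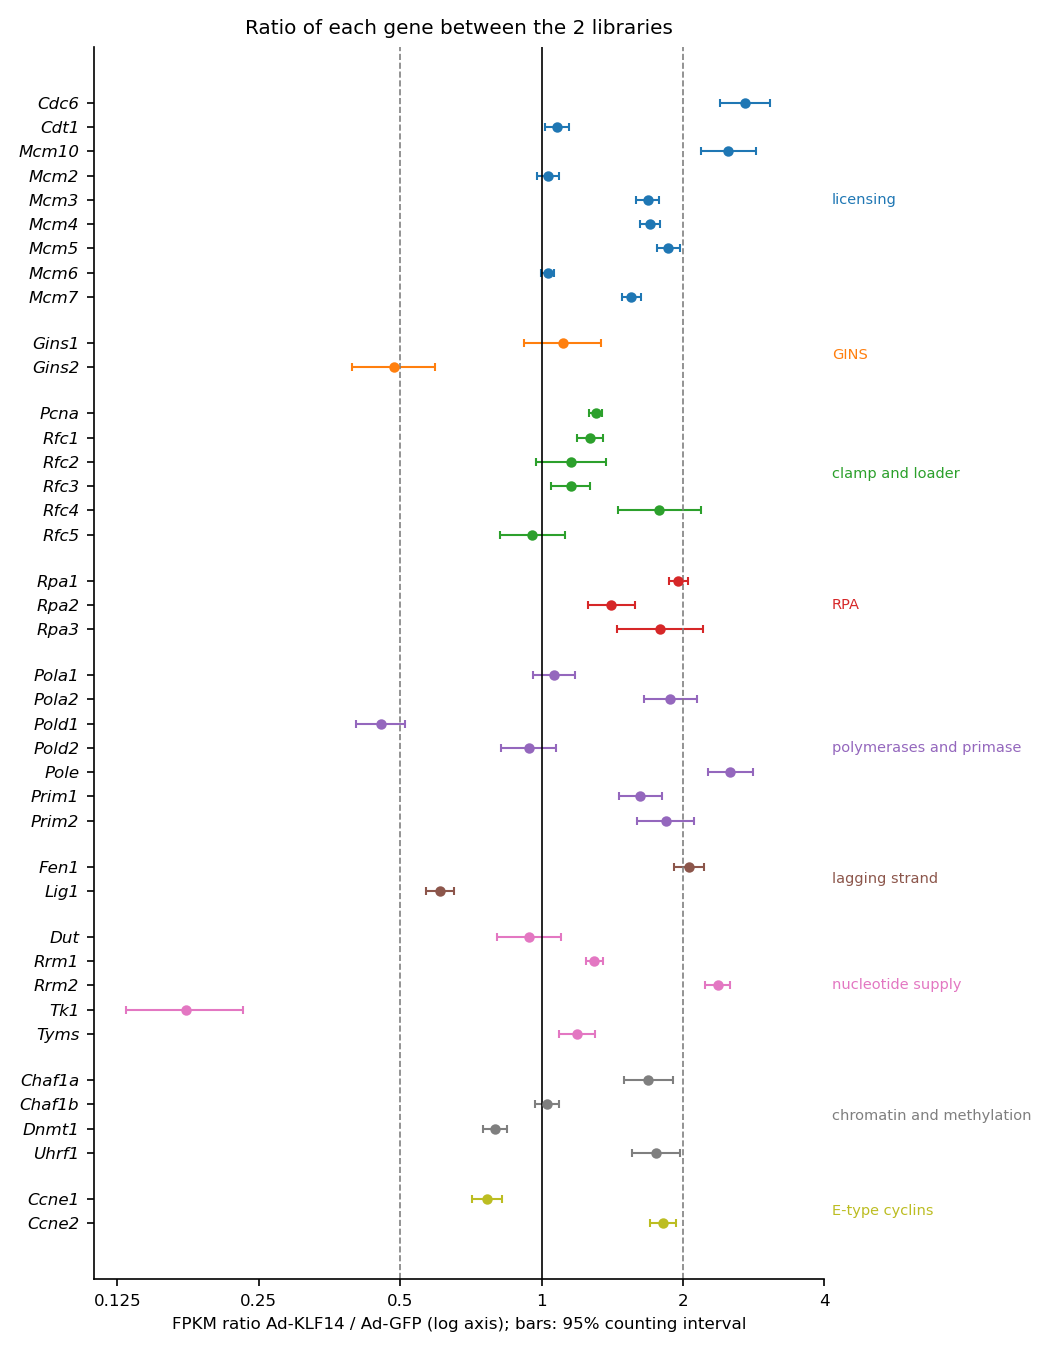
FPKM ratio of Ad-KLF14 to Ad-GFP (log axis) for the 40 genes, 1 row per gene and coloured by role; bars are 95% counting intervals, the solid line marks a ratio of 1 and dashed lines 0.5 and 2. The licensing and RPA rows all have points to the right of 1, and the points farthest to the left are Tk1, Pold1, Gins2 and Lig1.

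Replicative polymerases went in both directions. Pole, the catalytic subunit of the leading-strand polymerase epsilon, was at 14.2 against 5.61 FPKM, from 1125 and 452 reads (2.52-fold higher, 2.26 to 2.82). Pold1, the catalytic subunit of the lagging-strand polymerase delta, was at 10.3 against 22.7 FPKM, from 393 and 878 reads (2.20-fold lower, 1.95 to 2.49). The level of Pole was therefore 0.247 times that of Pold1 in the Ad-GFP library and 1.37 times that of Pold1 in the Ad-KLF14 library. Pold2, the accessory subunit of delta, was at 24.0 against 25.6 FPKM (ratio 0.938, 0.821 to 1.07), and its interval did not overlap with that of Pold1.

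Polymerase alpha and primase, which lay down the starting primers, had counting intervals above 1 in 3 of 4 subunits. Pola2 was at 50.9 against 27.1 FPKM (1.88-fold, 1.66 to 2.14), the large primase subunit Prim2 at 26.7 against 14.5 FPKM (1.84-fold, 1.60 to 2.11) and the catalytic primase subunit Prim1 at 55.2 against 34.0 FPKM (1.62-fold, 1.46 to 1.80). Pola1, the polymerase subunit itself and the only X-linked gene of the group, was at 12.7 against 12.0 FPKM, a ratio of 1.06 with an interval of 0.958 to 1.18. Lagging-strand maturation showed another opposite pair. Fen1, the nuclease that removes the primer flap, was at 89.0 against 43.3 FPKM (2.06-fold higher, 1.91 to 2.21). Lig1, the ligase that seals the remaining nick, was at 38.5 against 63.4 FPKM (1.64-fold lower, 1.54 to 1.76). Fen1 stood at 0.683 times the level of Lig1 in the Ad-GFP library and at 2.31 times in the Ad-KLF14 library.

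Nucleotide supply held both the largest negative log2 ratio of the group and one of the largest positive ones. Rrm2, the small subunit that limits ribonucleotide reductase in S phase, was at 137 against 57.6 FPKM, from 3319 and 1420 reads (2.37-fold higher, 2.23 to 2.52). Its partner Rrm1, the large subunit, was at 111 against 85.8 FPKM, a ratio of 1.29 (1.24 to 1.35). Tk1, the cytosolic thymidine kinase of the salvage route, was at 3.86 against 22.1 FPKM, from 59 and 342 reads (5.71-fold lower, 4.32 to 7.67). Tyms, which makes thymidylate de novo, was at 25.8 against 21.7 FPKM, a ratio of 1.19 (1.09 to 1.30), and Dut, which removes dUTP, at 23.7 against 25.1 FPKM, a ratio of 0.942 (0.804 to 1.10). Tk1 and Tyms thus had near-equal levels in the Ad-GFP library, while in the Ad-KLF14 library Tk1 stood at 0.150 times the level of Tyms.

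Chromatin genes at the fork were unequal within their complexes too. Of chromatin assembly factor 1, which deposits histones on new DNA, the large subunit Chaf1a was at 39.6 against 23.5 FPKM (1.69-fold higher, 1.50 to 1.90), while Chaf1b was at 106 against 103 FPKM (ratio 1.03, 0.970 to 1.09). Uhrf1, which reads hemimethylated DNA and recruits the maintenance methyltransferase, was at 59.3 against 33.9 FPKM (1.75-fold higher, 1.56 to 1.97). The methyltransferase Dnmt1 was at 35.5 against 44.7 FPKM (1.26-fold lower, 1.19 to 1.33). Among E-type cyclins, which drive the kinase Cdk2 into S phase, Ccne2 was at 83.1 against 45.8 FPKM (1.82-fold higher, 1.71 to 1.93) and Ccne1 at 119 against 155 FPKM (1.31-fold lower, 1.21 to 1.40). Ccne1 kept the higher level of the pair in both libraries, and Ccne2 stood at 0.295 times its level in the Ad-GFP library and at 0.698 times in the Ad-KLF14 library.

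A list of 72 further genes of replication and S phase, none of them among the 40, was described in the same way. This list too was chosen with earlier results of these data known, so its shares are a description only. All 72 passed the level filter, and 46 had log2 ratios above 0 (63.9%, against 48.3% of all genes). The median was 0.22, beside −0.03 over all genes. At least 2-fold higher were 14 genes (19.4%, against 6.37% of all genes), and 3 were at least 2-fold lower (4.17%, against 8.99%). The activator E2f2 was at 38.9 against 3.64 FPKM (10.7-fold higher, 9.22 to 12.4). E2f3 was at 7.07 against 8.34 FPKM (ratio 0.848, 0.741 to 0.970). For E2f1, at 20.1 against 23.9 FPKM from at least 138 and 166 reads, the interval held 1 (ratio 0.843, 0.668 to 1.06). Those reads imply a gene length of 615 bases, where the nearest reference transcript has 2732 bases. The reads are lower limits, so this interval can be too wide, and a difference in E2f1 is left undecided. Asf1b, a histone chaperone that hands histones to chromatin assembly factor 1, was at 54.9 against 10.3 FPKM (5.34-fold higher, 4.56 to 6.28), and its paralog Asf1a at 24.7 against 22.2 FPKM. Clspn, the fork adaptor of the checkpoint kinase Chk1, was at 26.1 against 5.0 FPKM (5.21-fold higher, 4.58 to 5.94).

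The 6 subunits of the origin recognition complex, which marks origins for licensing, summed to 202 against 124 FPKM (1.63-fold). Of the 6, 4 had a ratio above 1, against 48.3% of all genes, and among these the interval of Orc4 (0.937 to 1.15) held 1. Orc6 was 3.27-fold higher (93.6 against 28.6 FPKM), Orc2 1.92-fold (27.8 against 14.5 FPKM) and Orc1 1.52-fold (15.5 against 10.2 FPKM), while Orc3, Orc4 and Orc5 had ratios of 0.763, 1.04 and 0.919. Origin firing and fork genes at least 2-fold higher were, beside Clspn, Recql4 (3.48-fold, 5.23 against 1.50 FPKM), Wdhd1 (2.53-fold, 46.3 against 18.3 FPKM) and Cdc45 (2.17-fold, 25.7 against 11.8 FPKM). Ticrr, at 2.35 against 0.749 FPKM, had an FPKM ratio of 3.14 (2.34 to 4.27) but a log2 ratio of only 0.94 with the pseudocount. PCNA partners and alternative loaders included Pclaf at 27.0 against 7.67 FPKM (3.53-fold), Chtf18 at 5.25 against 1.65 FPKM (3.18-fold) and Atad5, which unloads the clamp, at 7.93 against 2.69 FPKM (2.95-fold). The S-phase cyclin Ccna2 was 2.39-fold higher, the ubiquitin ligase subunit Skp2 2.52-fold and the proliferation marker Mki67 3.25-fold. Cdk2, the partner of the E-type cyclins, was at 26.6 against 43.5 FPKM.

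On log2(FPKM + 1), the 3 genes of that list at least 2-fold lower were Pole4, Cdca7 and Dctd. Rrm2b, a paralog of Rrm2, was at 0.775 against 1.74 FPKM (2.25-fold lower, 1.53 to 3.37), but its log2 ratio with the pseudocount was only −0.63. Pole4, a small histone-fold subunit of polymerase epsilon, was at 6.03 against 31.6 FPKM (5.23-fold lower, 4.28 to 6.45), so it lay opposite to its catalytic partner Pole. Another epsilon subunit, Pole2, was at 6.77 against 10.6 FPKM and Pole3 at 96.7 against 66.5 FPKM. Cdca7, which works with the remodeller Hells, was 2.48-fold lower (14.4 against 35.6 FPKM) and the deaminase Dctd 2.41-fold lower (3.12 against 7.53 FPKM).

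**Figure D4:**
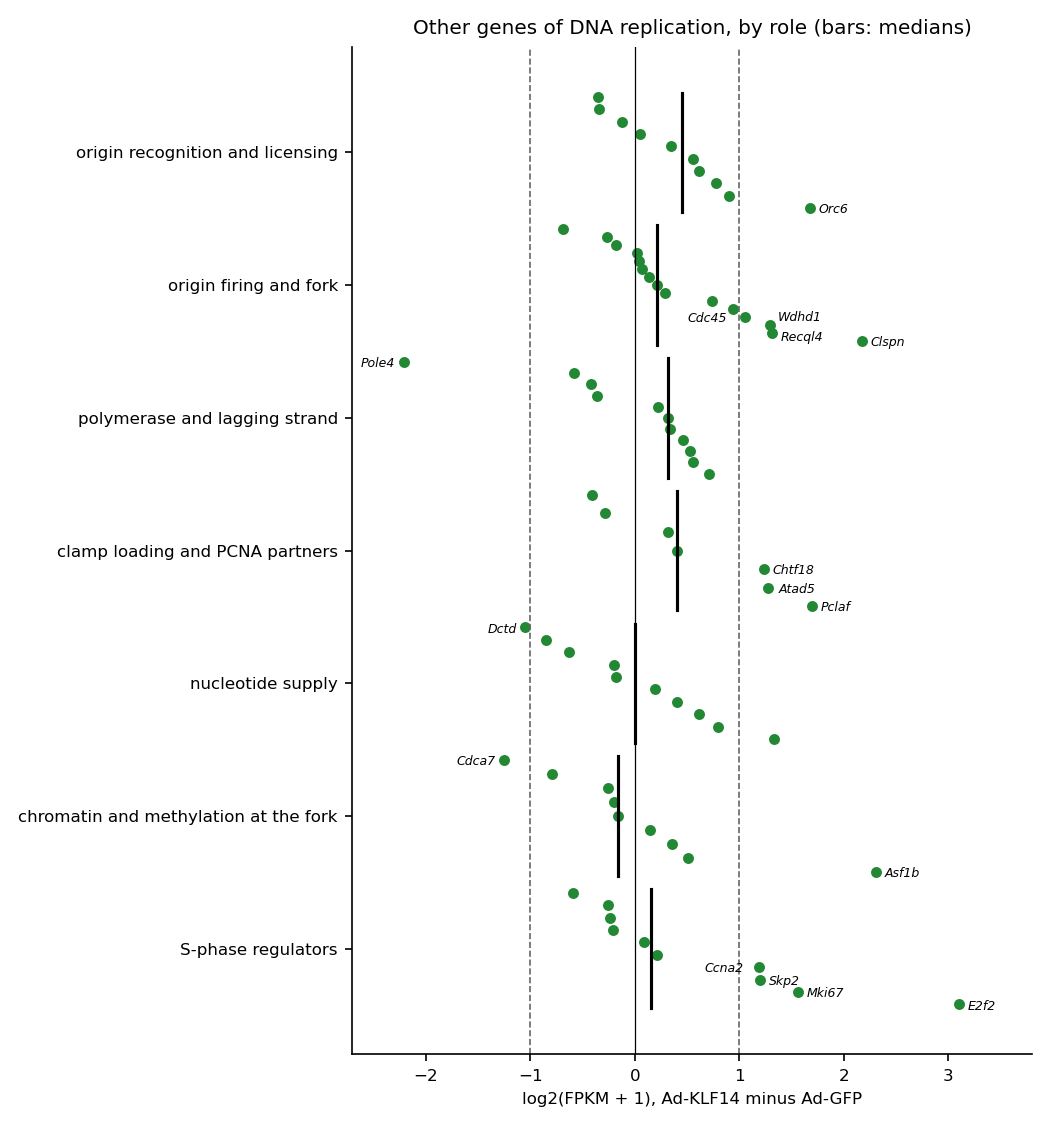
Difference of log2(FPKM + 1), Ad-KLF14 minus Ad-GFP, for the 72 further replication and S-phase genes by role; each point is a gene, black bars are medians of a role, dashed lines mark 2-fold, and genes past them that the text describes are named. The 14 genes past the upper line fall in 6 of the 7 roles, with E2f2 the farthest, and Pole4 is the farthest below.

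Sequence features that played no part in choosing the genes were compared last. Some genes have several promoter windows, and a gene was counted if any of its windows held a match. An E2F-type match was present in 12 of 33 genes (36.4%) and in 18 of 60 genes of the further list (30%). Among all genes kept it was present in 394 of 8031 genes with a window (4.91%). The median log2 ratio was 0.16 over the 12 genes with a match and 0.38 over the 21 without, and the former include Cdc6 and Mcm5 as well as Lig1, Dnmt1 and Pold1. The CCAAT box (CCAAT, both strands) was present in 20 of 33 genes (60.6%, against 43.2% of genes kept). Those 20 genes had a median log2 ratio of 0.56, beside 0.04 over the 13 without. The GC box (GGGCGG, both strands), to which SP and KLF proteins are known to bind, was present in 25 of 33 genes (75.8%, against 69.9%). The medians were 0.24 with it and 0.58 without. These are counts of letters, not of bound sites.

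Among the 40 genes the log2 ratio was lower where the transcript was richer in G and C, with a Spearman's rho of −0.44 across genes. The lowest GC content was that of Ccne2, at 35.0%, and the highest that of Pold1, at 60.7%. The same rho was 0.02 over the 72 further genes and −0.04 over 10652 genes kept with a reference transcript. Genes share libraries and are not independent replicates, and the part of base composition in the ratios was not tested. By chromosome, 4 of the 40 genes lie on chromosome 7, of which Pold1, Lig1 and Ccne1 were lower and Rrm1 higher. Over all genes kept, 6420 of 12419 had log2 ratios below 0, and chromosomes 2, 5, 8, 9 and 11 also hold members below 0. Tk1 and Cdc6, with the largest negative and positive log2 ratios, both lie on chromosome 11. In GENCODE M21, 9 of the 40 genes share at least 100 exonic bases with a gene on the opposite strand. The longest overlaps are those of Gins2 with Gse1 (2758 bases, where the gene length implied by the values of Gins2 was 1038 bases), Fen1 with the antisense Gm10143 (1908 bases), Chaf1a with Ubxn6 (1862 bases) and Rfc2 with Lat2 (952 bases). Rfc5, Ccne2, Mcm7, Lig1 and Rfc4 share between 175 and 499 bases. Whether the authors counted by strand is not given in the sources used here, so reads of such partners may be included in these 9 values.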

How the data were processed

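Per the labels' protocols, Trizol-extracted RNA went into Illumina TruSeq RNA libraries. Bowtie 0.12.2 and the mm8 build are named per the submitters' processing notes; gene models, counting rule and pooling of cultures are not given in the sources used here. The authors deposited 1 FPKM value per gene symbol and library.

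From these FPKM values, whole reads were recovered with Python 3.11.15 (NumPy 2.4.6, SciPy 1.17.1). The commonest ratio between libraries, shared exactly by 679 genes, gave the ratio of totals. Their common factor, 9, was the largest that left most gene lengths whole. For every gene the smallest whole reads were used, so they are lower limits and the intervals can be too wide. Of the 40 genes, 18 had an implied length within 1% of a GENCODE M21 transcript. Pcna and Ccne2 reads were then divided by 2 and rounded down, because their implied length exceeded every transcript. The reads of these genes are therefore approximate and do not return the FPKM ratio exactly. The steps were tested on simulated data.

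Log2 ratios used a pseudocount of 1 FPKM and genes whose mean reached 1 FPKM. Folds and intervals use FPKM without it. The members, the list of 72 further genes (older symbols matched through RefSeq) and the markers were chosen with earlier results of these data known. All 40 members were named, and of the further list those at least 2-fold apart (1 of them is not reported here), with partners of members named after their values were seen.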

Additional observations from a re-analysis of the deposited data

How the results depend on the processing

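With 1 library per condition, no result has an error between cultures, and 9 alternatives changed only the arithmetic: pseudocounts of 0.1 and 5 FPKM, no level filter or 5 FPKM, 4 scalings and removal of a running median along expression. The median log2 ratio of the 40 genes stayed between 0.36 and 0.43 and that of the 72 further genes between 0.19 and 0.28. With a pseudocount of 5 FPKM, which shrinks ratios of low genes by construction, 1 gene (Rrm2) was at least 2-fold higher and 1 gene (Tk1) at least 2-fold lower, each 2.5% of the 40, beside 2.38% and 3.76% of all genes, so the share of higher calls was then close to the background. Under the other alternatives 4 to 6 genes were higher and 2 or 3 lower, beside 4.31% to 8.87% and 5.92% to 12.0% of all genes: Rpa1 joined with upper-quartile scaling or a sum of 1000000, Gins2 with a pseudocount of 0.1, and Fen1 left when the running median was removed. Mcm2 alone of the 40 changed the sign of its ratio, with the running median removed. Depth limited the genes with few reads most, Tk1 above all. No paired analysis was possible because each condition holds 1 library.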
